A study of Mus musculus with 56 samples.

Results

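The livers of 8 mice given ponatinib at 10 mg/kg were compared, across all genes, with those of 8 mice given L-NAME, 16 of the 56 mice whose liver mRNA was sequenced. The groups were taken from the sample labels. L-NAME was chosen as the reference because its library shares were described as close to those of the treated groups, so a measured property entered the choice. This closeness did not extend to ponatinib 3 mg/kg. All mice were female APOE*3Leiden.CETP transgenics, which carry human lipoprotein genes (a variant of apolipoprotein E and the cholesteryl ester transfer protein). Their stated age was 9 to 14 weeks, before the diet run-in and treatment that the study describes, so the livers came from older mice. All were fed a Western-type diet of 15% cacao butter and 0.15% cholesterol, controls included. The ponatinib mice received 1 gavage of the drug per day for 16 weeks, with a further gavage of vehicle, 5% carboxymethyl cellulose. The L-NAME mice drank water with 0.12 to 0.20% L-NAME and were gavaged with vehicle alone. The study's methods do not describe the L-NAME group, and how long L-NAME was given is not stated in the sources used here, so length of treatment and drug cannot be told apart. The other groups, of 8 mice each, were control (vehicle), ponatinib 3 mg/kg, nilotinib 10 and 30 mg/kg, and imatinib 150 mg/kg given 2 times per day. Each sample was a separate mouse.

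Ponatinib is an inhibitor of the BCR-ABL1 tyrosine kinase that also blocks several receptor kinases of blood vessels and growth factor signalling. L-NAME is an arginine analogue that inhibits nitric oxide synthases and raises blood pressure. In the liver, cholesterol is made from acetyl-CoA through mevalonate, squalene and lanosterol, and the genes of this route are switched on together by the transcription factor SREBP-2 when cell sterol falls. The related factor SREBP-1c, with insulin and ChREBP, drives the genes that turn glucose carbon into fatty acids and triglycerides. Both sets of genes react to feeding, to dietary cholesterol and to the sterol content of the hepatocyte.

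The share of reads outside annotated genes was close in the 2 groups, and L-NAME had been chosen as the reference for close library shares. The test of this share is therefore a description and gives no independent evidence that the libraries were alike. Of the uniquely placed reads, 11.04% ± 1.99 (SD, n = 8) lay outside annotated genes with ponatinib and 10.99% ± 2.45 with L-NAME, a difference of 0.05 percentage points (two-sided exact permutation test over 12870 assignments, p = 0.9552), against 7.97% ± 0.42 in control. The highest library of each group lay apart, at 15.19% in ponatinib mouse 3 and 16.75% in L-NAME mouse 2. Without these libraries the shares were 10.45% ± 1.16 and 10.17% ± 0.81. The libraries of ponatinib 3 mg/kg, at 8.53% ± 0.61, lay nearer control than L-NAME. Reads counted on genes ranged from 7067386 to 11997763 with ponatinib and from 6988328 to 8983406 in 7 of the L-NAME mice, while L-NAME mouse 2 had 97473341. Ponatinib mouse 2 stood apart by its acute phase genes. All 9 hepatocyte markers, albumin among them, were measured, with a summed level of 79000 to 150000 CPM (counts scaled to a fixed library size) with ponatinib and 91520 to 126700 CPM with L-NAME.

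Ponatinib-treated livers differed from L-NAME-treated livers mainly in genes of cholesterol and fatty acid synthesis, which were higher. The lower genes were fewer, and 13 of the 17 were in none of the lists. Of 14314 genes tested, 60 (0.419%) passed an adjusted p of 0.05, 43 higher (0.3%) and 17 lower (0.119%) with ponatinib. All adjusted p-values are those of edgeR's quasi-likelihood test, adjusted over every tested gene by the method of Benjamini and Hochberg, and differences are log2 of ponatinib over L-NAME, ± SE. Without adjustment, 389 genes had p below 0.01, the cut-off of the study itself, and 1164 below 0.05. Of the 43 higher genes, 19 were in the list of 30 genes of cholesterol synthesis and uptake, 10 in the list of 34 genes of fatty acid and triglyceride synthesis, and 13 in none of the 25 lists used. The higher genes differed by 0.42 to 2.66 and the lower genes by -0.65 to -3.47. The CPM ranges of the groups did not overlap in 18 of all tested genes (0.126%), in 13 of the 43 higher genes and in 3 of the 17 lower ones. Of the 43 higher genes, 23 were called whichever of the 16 mice was left out. Of the 17 lower genes this held for 3, Gpnmb, Adam11 and Cd74. The number called was 114 without ponatinib mouse 2, 37 without L-NAME mouse 2 and 22 without both high-share libraries (20 higher and 2 lower). Of the called genes, 14 of the 19 in the cholesterol list and 4 of the 10 in the lipogenesis list were called without both libraries. The lower genes still called were Gpnmb and Adam11, while the other 15 lower genes were not.

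**Figure D1:**
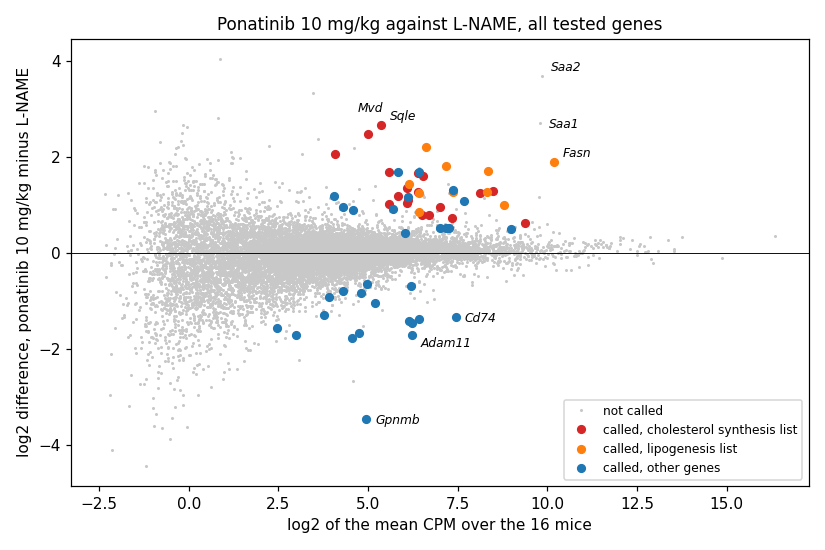
Difference between ponatinib 10 mg/kg and L-NAME for each tested gene (y axis, log2, ponatinib minus L-NAME) against its mean level over the 16 mice (x axis, log2 CPM). Coloured points are the 60 genes called, and grey points are genes not called. The red and orange points, 19 cholesterol synthesis and 10 lipogenesis genes, all lie above 0, and the lower genes are led by Gpnmb.

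Each treatment was also set beside control. Against control, 1877 genes (13.1%) were called with ponatinib 10 mg/kg and 1688 (11.8%) with L-NAME. Control libraries had a smaller share of reads outside genes, so treatment and library share cannot be told apart in any comparison with control. Over the 43 genes higher with ponatinib than with L-NAME, the median difference from control was 0.53 with ponatinib, with 21 called, all of them above control, and -0.57 with L-NAME, with 15 called, all below control. Over the 17 lower genes the medians were -0.97 with ponatinib, with 12 called, all below control, and 0.08 with L-NAME, with 0 called by edgeR. These comparisons share the ponatinib, L-NAME or control mice with the one that chose the genes, so the values are a description and are not independent.

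Genes of cholesterol synthesis were higher with ponatinib along the whole route. Of 29 listed genes that could be tested, 19 (65.5%) were higher, 0 were lower and 28 had a positive difference, with a median of 1.00 against 0.007 for all tested genes. The summed level of the list was 2582, 2849 and 3354 CPM (lowest, median and highest mouse) with L-NAME and 3891, 4777 and 5944 CPM with ponatinib, so the groups did not overlap. The control mice lay between, at 3548, 3947 and 4551 CPM, and overlapped the ponatinib mice. By step, 6 of 8 genes from acetyl-CoA to farnesyl diphosphate, 3 of 3 from squalene to lanosterol, 7 of 9 from lanosterol to cholesterol and 3 of 9 genes of uptake, transport and regulation were higher. The number of list genes called was 16 to 20 when any mouse was left out, and 20 by DESeq2 and 21 by limma voom.

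Among the mevalonate genes, Mvd (chr8:122433601-122443422, GRCm38, minus strand), the decarboxylase that makes isopentenyl diphosphate, was at 1.981, 8.819 and 20.9 CPM with L-NAME and at 27.02, 38.51 and 110.5 CPM with ponatinib, 5.55-fold higher (2.47 ± 0.36, adjusted p = 4.121e-05), without overlap. Fdps (chr3:89093588-89101959), farnesyl diphosphate synthase, was at 3.128, 6.915 and 8.482 CPM with L-NAME and at 16.06, 27.61 and 41.17 CPM with ponatinib (2.06 ± 0.36, adjusted p = 0.000558), also without overlap. Of the stretches of 50 bases in Fdps transcripts, 26.19% also occur in transcripts of other genes, so its counts are uncertain. This share was 39.10% for Acat2, 26.54% for Fdft1, 30.43% for Acaca, 28.34% for Me1, 20.55% for Pklr and 25.99% for Eno1, whose counts are uncertain in the same way. Hmgcs1 (1.25), which makes HMG-CoA, Acat2 (1.04), which joins acetyl-CoA units, and Pmvk (1.19), a mevalonate pathway kinase, were higher too. Mvk had 0.40 (adjusted p = 0.8702) and Idi1 1.97 at a mean of 2.675 CPM (adjusted p = 0.3743).

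Among the 43 higher genes, squalene epoxidase showed the largest difference. Its gene Sqle (chr15:59315077-59331192) was at 5.398, 10.74 and 15.5 CPM with L-NAME and at 38.34, 64.56 and 108.9 CPM with ponatinib, 6.33-fold higher (2.66 ± 0.41, adjusted p = 6.979e-05), and every ponatinib mouse was above every L-NAME mouse. Fdft1, squalene synthase, and Lss, lanosterol synthase, were higher by 0.79 and 1.34. After lanosterol, Cyp51, the lanosterol demethylase, was at 28.82, 46.08 and 60.13 CPM with L-NAME and at 91.82, 124.9 and 195.1 CPM with ponatinib (1.60 ± 0.25, adjusted p = 9.346e-05). Nsdhl (chrX:72918557-72958514), a sterol dehydrogenase, was at 12.99, 22.77 and 34.38 CPM and at 51.15, 70.57 and 98.98 CPM (1.67 ± 0.25, adjusted p = 4.121e-05). Neither gene overlapped between the groups. Msmo1 (1.26), Dhcr7 (1.10), Hsd17b7 (1.00), Tm7sf2 (0.96) and Sc5d (0.62), further enzymes of the last steps, were higher, and Ebp (0.30) was not called.

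**Figure D2:**
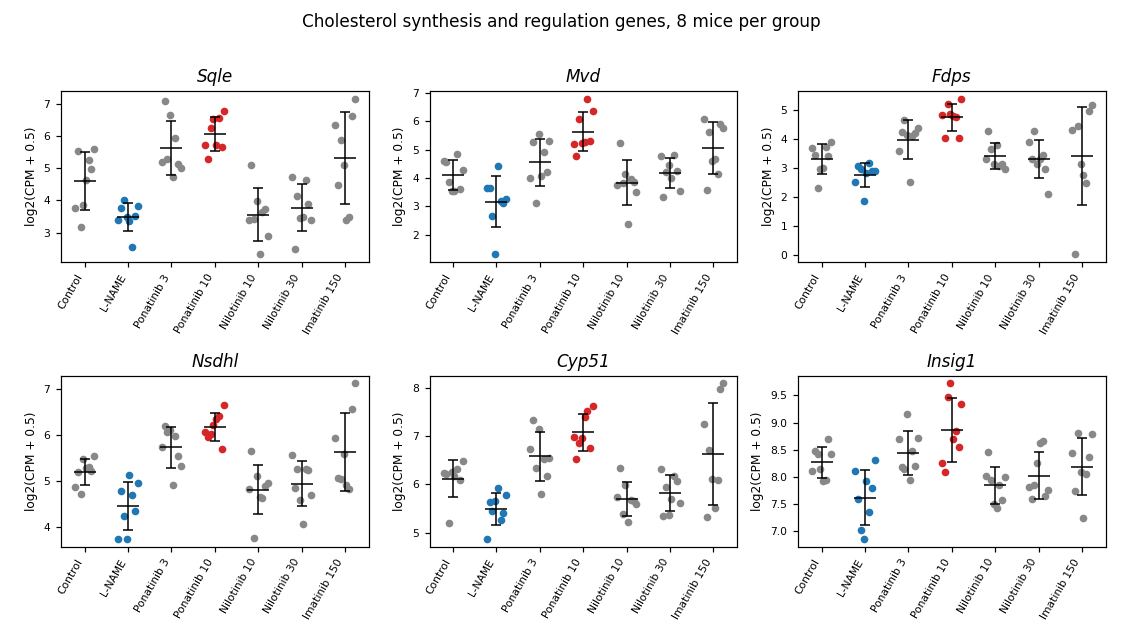
Levels of 5 cholesterol synthesis genes and their regulator Insig1 (y axes, log2 of CPM + 0.5) in the 8 mice of each of the 7 groups (x axes), 1 point per mouse, with bars for the mean ± SD of the log2 values. In Sqle, Mvd, Fdps, Nsdhl and Cyp51 the red ponatinib 10 mg/kg points all lie above the blue L-NAME points, and in Insig1 6 of 8 lie above every L-NAME point.

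Among the genes of uptake and regulation, Insig1, which holds SREBP precursors in the endoplasmic reticulum when sterols are plentiful, was at 115.0, 205.9 and 315.8 CPM with L-NAME and at 271.3, 436.5 and 844.1 CPM with ponatinib (1.29 ± 0.21, adjusted p = 0.000221). Stard4, a cytosolic sterol carrier, was higher by 0.78. Srebf2, which encodes SREBP-2, had 0.47 (adjusted p = 0.2197). Scap, Insig2, Nr1h3 and Mylip had 0.33, 0.07, 0.01 and -0.54 and were not called. Npc1l1 was too low to be tested.

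Against control the list stood above with ponatinib and below with L-NAME. With ponatinib 14 of the 29 list genes were above control and 1 below, and with L-NAME 0 were above and 6 below by edgeR. Sqle was 1.34 above control with ponatinib (adjusted p = 0.01445) and -1.32 with L-NAME (adjusted p = 0.0216). Mvd was 1.61 above with ponatinib (adjusted p = 0.001088) and -0.86 with L-NAME (adjusted p = 0.1044). With the other inhibitors as reference, 0 of the list genes differed by edgeR between ponatinib 10 mg/kg and imatinib, where 154 of all genes (1.08%) were called, and 19 were higher with ponatinib than with nilotinib 30 mg/kg, where 269 (1.88%) were called. With L-NAME as reference, 20 were higher with ponatinib 3 mg/kg (565 of all genes called, 3.95%) and 15 with imatinib (447 called, 3.12%). With nilotinib 30 mg/kg 0 were higher by edgeR (1 gene called, 0.00699%, Plxnb1, named after its value was seen). Ponatinib 3 mg/kg had 8.53% of reads outside genes and L-NAME 10.99%, so treatment and library share cannot be told apart between them.

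Promoter sequences are shown for 3 of the genes higher with ponatinib, to show the letters that SREBP and its partner NF-Y are known to bind. Each runs 5′ to 3′ from 250 bases before to 50 bases after the start of the gene, on the strand of the gene, from RefSeq (GRCm38.p6). Capitals mark the sterol regulatory element letters TCACNCCAC and the CCAAT box, letters CCAAT, each searched on both strands. Hmgcs1 (chr13:119690101-119690400, plus strand) was shown because its promoter was the only one among those of the called sterol genes to hold the element, 137 bases before the start. Mvd (chr8:122443373-122443672, minus strand) was shown for its size of change, and Fasn (chr11:120824498-120824797, minus strand) as a lipogenic gene in which CCAAT matches on opposite strands overlap.
Hmgcs1: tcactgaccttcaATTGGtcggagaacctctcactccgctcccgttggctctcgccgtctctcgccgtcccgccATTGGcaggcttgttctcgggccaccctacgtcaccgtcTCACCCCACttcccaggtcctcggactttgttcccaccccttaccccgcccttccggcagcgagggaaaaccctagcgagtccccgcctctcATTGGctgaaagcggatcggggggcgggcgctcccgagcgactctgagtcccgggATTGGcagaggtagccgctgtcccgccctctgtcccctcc
Mvd: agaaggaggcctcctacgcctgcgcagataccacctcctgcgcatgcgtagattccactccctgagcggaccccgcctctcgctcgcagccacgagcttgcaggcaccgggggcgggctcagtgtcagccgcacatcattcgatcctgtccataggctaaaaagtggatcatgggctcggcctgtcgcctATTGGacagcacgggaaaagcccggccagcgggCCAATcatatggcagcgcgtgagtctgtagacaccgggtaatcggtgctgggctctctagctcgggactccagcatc
Fasn: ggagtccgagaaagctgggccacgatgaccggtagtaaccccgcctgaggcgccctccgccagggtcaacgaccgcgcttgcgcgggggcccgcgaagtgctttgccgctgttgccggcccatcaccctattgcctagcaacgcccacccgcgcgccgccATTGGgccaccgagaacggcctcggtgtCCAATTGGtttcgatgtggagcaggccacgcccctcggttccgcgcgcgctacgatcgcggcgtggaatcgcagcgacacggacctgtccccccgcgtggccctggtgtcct
Of the 19 sterol genes called higher, 13 matched the table by symbol, with 16 promoters. The element was in 1 of these 16 (6.25%) and in 1.16% of the 13318 promoters of tested genes, and a CCAAT box was in 12 of the 16 and in 37.5% of the promoters of tested genes. The 10 lipogenic genes called had 13 promoters, 0 with the element and 7 (53.8%) with a CCAAT box. These shares are descriptions of a window of 300 bases and were not tested.

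Genes of fatty acid and triglyceride synthesis were also higher, in fewer members and with more spread between mice. Of 33 listed genes tested, 10 (30.3%) were higher, 0 were lower and 25 had a positive difference, with a median of 0.43. Fasn (chr11:120805846-120824547), fatty acid synthase, was at 308.8, 431.2 and 866.5 CPM with L-NAME and at 351.4, 1380 and 4517 CPM with ponatinib (1.89 ± 0.32, adjusted p = 0.000221), and 7 of 8 ponatinib mice were above every L-NAME mouse, the exception being ponatinib mouse 2. Acly, which splits citrate to supply acetyl-CoA, was at 78.54, 134.7 and 246.2 CPM and at 120.5, 376.4 and 1275 CPM (1.70 ± 0.37, adjusted p = 0.01096). Elovl6, which lengthens palmitate, was at 42.35, 64.71 and 97.2 CPM and at 51.62, 196.1 and 489.4 CPM (1.80 ± 0.28, adjusted p = 6.979e-05). In all 3 genes ponatinib mouse 4 was the highest and ponatinib mouse 2 the lowest of the ponatinib group. Pnpla3 (chr15:84167837-84187236), a lipid droplet acylhydrolase, was at 18.37, 21.82 and 74.59 CPM and at 10.68, 102.8 and 525.1 CPM (2.20 ± 0.46, adjusted p = 0.007274), with ponatinib mouse 2 below every L-NAME mouse and 4 ponatinib mice above all of them. Without ponatinib mouse 3 the difference in Pnpla3 was 1.62 (adjusted p = 0.0671), and without ponatinib mouse 4 that in Acly was 1.33 (adjusted p = 0.081).

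The other lipogenic genes called were Gpam (1.44), which adds the first acyl chain to glycerol phosphate, Me1 (1.27) and Acss2 (1.26), which supply NADPH and acetyl-CoA, Lpin1 (1.24), a phosphatidate phosphatase, Pklr (0.99), the liver pyruvate kinase, and Acaca (0.84), acetyl-CoA carboxylase. Gpam was no longer called in 4 of the 16 fits that left out 1 mouse, and without ponatinib mouse 4 its difference was 0.79 (adjusted p = 0.3457). Without both high-share libraries Pnpla3, Acly, Gpam and Pklr were not called (adjusted p = 0.166, 0.0872, 0.0817 and 0.0671). Acss2 and Acaca were not called in that fit either, and were called in 5 and 7 of the 16 fits that left out 1 mouse. Scd1, the stearoyl-CoA desaturase, had 0.32 (adjusted p = 0.7344), Srebf1 0.09 (adjusted p = 0.97), Mlxipl, which encodes ChREBP, 0.13 (adjusted p = 0.9432), and Thrsp 1.13 (adjusted p = 0.196). The number of list genes called was 6 to 11 when any mouse was left out. It was 6 without ponatinib mouse 4 and 11 by DESeq2. Against control, 11 of the 33 genes were lower and 0 higher with L-NAME by edgeR, and 5 were lower and 3 higher with ponatinib. Fasn, Acly and Gpam differed from control by -1.42, -1.71 and -1.72 with L-NAME (adjusted p = 0.001308, 0.001007 and 0.0003777), and by 0.47, -0.01 and -0.28 with ponatinib (adjusted p = 0.3458, 0.9911 and 0.646). Pnpla3 was the other way, with -0.24 for L-NAME (adjusted p = 0.8194) and 1.95 for ponatinib (adjusted p = 0.002064).

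**Figure D3:**
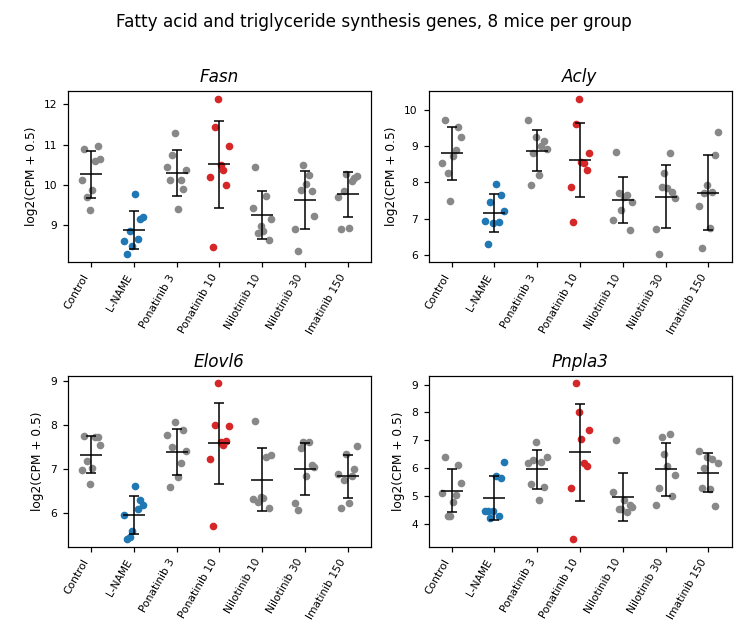
Levels of 4 lipogenic genes (y axes, log2 of CPM + 0.5) in the 8 mice of each group (x axes), 1 point per mouse, with bars for the mean ± SD of the log2 values. In Fasn, Acly and Elovl6 the blue L-NAME points lie below most control points, and the lowest red point, ponatinib mouse 2, lies within the L-NAME range.

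Some of the remaining higher genes also act in lipid or sterol handling. Cyp8b1, the sterol hydroxylase that makes cholic acid, was at 55.78, 88.33 and 141.5 CPM with L-NAME and at 92.56, 204.6 and 482.4 CPM with ponatinib (1.31 ± 0.25, adjusted p = 0.00182). It was the only gene called of 27 in the list of bile acids and sterol export. Aacs, which activates acetoacetate for lipid synthesis, had 1.68 (adjusted p = 0.04524), and its call was kept in 6 of 16 fits that left out 1 mouse. Acsl3, a fatty acyl-CoA ligase, and Rdh11, a retinol dehydrogenase, had 0.91 and 1.16. The glycolytic enzymes Eno1 and Gpi1 had 0.51 and 0.52, the water channel Aqp8 1.08 and the reductase Cyb5r3 0.50. Derl2, a component of endoplasmic reticulum protein disposal, Secisbp2l, Rassf6 and Stk38l made up the protein-coding genes, at 0.51, 0.42, 0.89 and 0.96. Acsl3, Eno1, Gpi1, Secisbp2l and Stk38l were called in 5, 6, 7, 8 and 6 of the 16 fits that left out 1 mouse. Derl2 was called in all of them. Both remaining genes were processed pseudogenes. Gm3571 (1.67, adjusted p = 4.121e-05) shares 52.82% of its stretches of 50 bases with Fdps transcripts, and Gm37784 (1.19, adjusted p = 0.0393) shares 47.14% with Insig1, so the assignment of their reads is uncertain.

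The lower genes included the classical chains of MHC class II, the molecules with which macrophages, dendritic cells and B cells display peptides to helper T cells. H2-Ab1 (chr17:34257689-34269419) was at 52.84, 105.9 and 147.9 CPM with L-NAME and at 20.53, 38.54 and 51.81 CPM with ponatinib, 2.68-fold lower (-1.42 ± 0.32, adjusted p = 0.0177). H2-Eb1 (chr17:34305867-34316674) was at 67.93, 98.88 and 162.6 CPM and at 22.38, 38.67 and 64.67 CPM (-1.46 ± 0.33, adjusted p = 0.01692). In both genes every ponatinib mouse was below every L-NAME mouse, by a narrow margin. H2-Aa (-1.37 ± 0.33, adjusted p = 0.03443) and Cd74, the invariant chain that guides class II to the peptide compartment (-1.35 ± 0.30, adjusted p = 0.0147), were lower with overlapping groups, the latter at 145.0, 257.7 and 358.3 CPM and at 63.15, 82.93 and 172.4 CPM. A further 3 genes of the same system, chosen after their values were seen, did not pass. They were Ciita, the class II transactivator, with -1.90 at a median of 1.308 CPM with ponatinib (adjusted p = 0.06128), H2-DMb1 with -1.02 (adjusted p = 0.4329) and H2-DMa with -0.56 (adjusted p = 0.8554).

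Against control these 4 called chains differed by -1.31 to -1.38 with ponatinib (adjusted p = 0.001732 to 0.0036) and by 0.02 to 0.08 with L-NAME (adjusted p = 0.93 to 0.981). Between ponatinib and imatinib they differed by 0.11 to 0.22 and were not called, and between ponatinib and nilotinib 30 mg/kg by -1.66 to -1.78, all called. The calls were sensitive to single mice. H2-Eb1 and H2-Ab1 had adjusted p-values of 0.052 and 0.0545 without ponatinib mouse 6, and H2-Aa was called in 7 of the 16 fits that left out 1 mouse, while Cd74 was called in all of them. Without both high-share libraries 0 of the 4 chains were called by edgeR, with differences of -1.26 to -1.41 (adjusted p = 0.0754 to 0.114). In whole liver, fewer cells of a type and less RNA per cell cannot be told apart. Of the cells that carry class II, the 11 Kupffer cell markers had a median difference of -0.09, 3 above and 8 below 0, and summed to 906.8 to 2147 CPM with L-NAME and 552.7 to 2732 CPM with ponatinib. The 7 tested B and plasma cell markers had a median of -0.55 and summed to 36.81 to 97.11 and 30.63 to 195.9 CPM. In both marker lists 0 genes were called by edgeR, with 1 and 3 at an unadjusted p below 0.05. Their part in the lower class II levels was not tested.

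**Figure D4:**
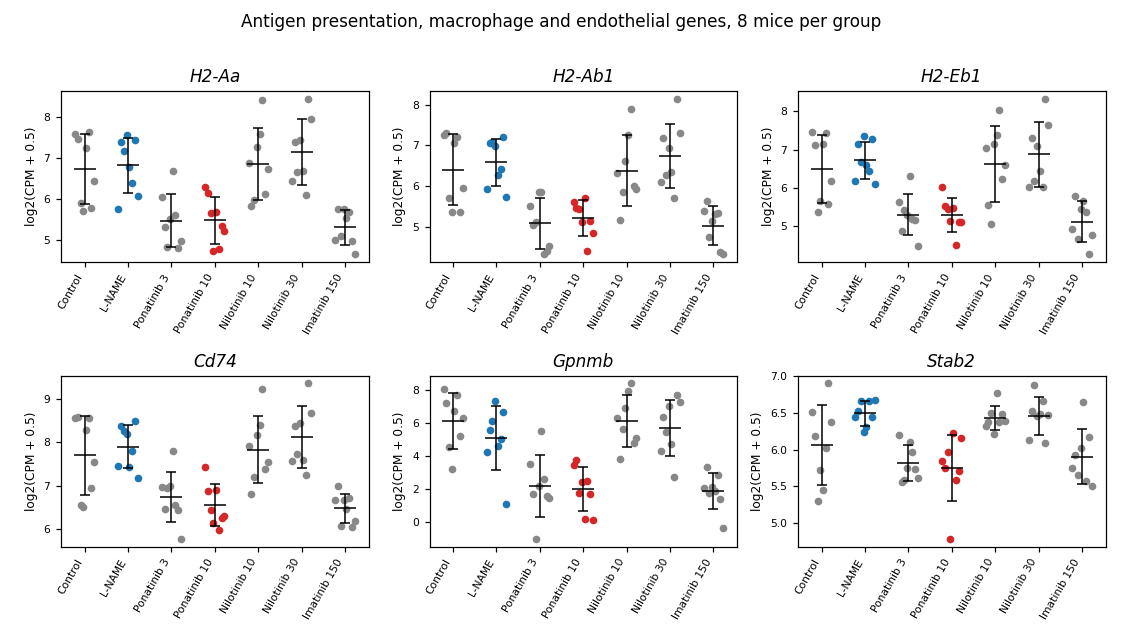
Levels of 4 MHC class II genes, Gpnmb and Stab2 (y axes, log2 of CPM + 0.5) in the 8 mice of each group (x axes), 1 point per mouse, with bars for the mean ± SD of the log2 values. The red ponatinib 10 mg/kg points lie below the blue L-NAME points without overlap in H2-Ab1, H2-Eb1 and Stab2, and with overlap in H2-Aa, Cd74 and Gpnmb.

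Of the 60 called genes the largest difference was in Gpnmb (chr6:49036546-49070929), a membrane protein of lipid-laden macrophages, at 1.628, 39.31 and 162.4 CPM with L-NAME and at 0.584, 3.89 and 12.9 CPM with ponatinib, 11.1-fold lower (-3.47 ± 0.74, adjusted p = 0.01056). The spread was wide. L-NAME mouse 8 had the 1.628 CPM and the other 7 L-NAME mice 18.64 CPM or more, above every ponatinib mouse. Against control Gpnmb differed by -4.40 with ponatinib (adjusted p = 7.458e-05) and by -0.93 with L-NAME (adjusted p = 0.4185), and ponatinib differed from imatinib by 0.35 (adjusted p = 0.9495). By limma voom Gpnmb was not called (adjusted p = 0.473). Cd68, a lysosomal protein of macrophages, was at 22.94, 50.17 and 67.35 CPM and at 11.61, 16.72 and 54.34 CPM (-1.06 ± 0.26, adjusted p = 0.03549). Both are in the list of adhesion and inflammation, where 2 of 43 tested genes were lower and 0 higher, and the median was -0.70 with 4 genes positive. Alox5ap, which presents arachidonic acid for leukotriene synthesis, had -1.56 (adjusted p = 0.0485). Cd68 and Alox5ap were called in 6 and 5 of the 16 fits that left out 1 mouse. Without L-NAME mouse 2 their adjusted p-values were 0.102 and 0.0958, and without both high-share libraries 0.190 and 0.134. The 9 tested monocyte and neutrophil markers had a median of -0.61, with 0 called by edgeR and 4 at an unadjusted p below 0.05, and summed to 153.8 to 604.5 CPM with L-NAME and 106.6 to 536.0 CPM with ponatinib. Their part in these differences was not tested.

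Stab2 (chr10:86841198-87008025), the hyaluronan scavenger receptor of liver sinusoids, was at 74.97, 88.85 and 101.5 CPM with L-NAME and at 27.09, 54.98 and 74.06 CPM with ponatinib (-0.70 ± 0.16, adjusted p = 0.02722), so the groups just failed to overlap. It was the only gene called of 12 sinusoidal endothelium markers. All 12 differences were negative, from -0.24 for Ptprb to -0.76 for Clec4g, with a median of -0.55 and 7 at an unadjusted p below 0.05. The summed marker level was 477.9, 523.3 and 733.3 CPM with L-NAME and 174.2, 437.2 and 547.3 CPM with ponatinib, the lowest being ponatinib mouse 2. In the 9 other marker lists with a tested gene, 0 of 69 genes were called by edgeR and 12 had an unadjusted p below 0.05. Cldn5, a tight junction protein of endothelium, was at 7.415, 10.24 and 21.76 CPM and at 1.497, 3.315 and 7.592 CPM (-1.72 ± 0.39, adjusted p = 0.01928). Ets1, a transcription factor active in endothelium and lymphocytes, its relative Ets2, and the endocytic adaptor Dab2 had -0.83, -0.65 and -0.93. Stab2 was called in 10, Cldn5 in 13, Ets1 in 12, Ets2 in 6 and Dab2 in 7 of the 16 fits that left out 1 mouse. Without L-NAME mouse 2 Stab2 had an adjusted p of 0.0576, and without both high-share libraries Stab2, Cldn5, Ets1, Ets2 and Dab2 had 0.0711, 0.0515, 0.0810, 0.113 and 0.114. By limma voom Stab2 and Cldn5 were not called (adjusted p = 0.0581 and 0.0898). Cldn5, Ets1, Ets2 and Dab2 were outside the marker lists, and the part of the marker level in their differences was not tested.

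Adam11, a catalytically inactive member of the ADAM family known from neurons, was lower in 7 of the 8 ponatinib mice. It was at 83.91, 117.0 and 141.8 CPM with L-NAME and at 5.826, 20.08 and 127.9 CPM with ponatinib (-1.72 ± 0.34, adjusted p = 0.003931). Ponatinib mouse 2 had the 127.9 CPM, and the other 7 ponatinib mice lay below every L-NAME mouse. Without ponatinib mouse 2 the difference was -2.43 (adjusted p = 1.37e-06). Derl3, a component of endoplasmic reticulum protein disposal found in secretory cells, had -1.68 (adjusted p = 0.0393), the only gene called of 24 in the list of ER chaperones, and was -2.39 between ponatinib and imatinib (adjusted p = 0.0003559). Slc26a10 (-1.29), an anion transporter family member whose exons overlap other genes in 17.76% of their bases, and Epb41l2 (-0.80), a membrane skeleton protein, completed the lower genes with Saa3. Derl3, Slc26a10 and Epb41l2 were called in 6, 5 and 6 of the 16 fits that left out 1 mouse. They were not called without both high-share libraries, and Derl3 and Slc26a10 were not called by limma voom.

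Acute phase genes divided the ponatinib group. Saa3, a serum amyloid A protein of macrophages and other cells outside the hepatocyte, was at 20.72, 31.97 and 59.37 CPM with L-NAME and at 0, 7.923 and 38.16 CPM with ponatinib, 7 of 8 mice below every L-NAME mouse (-1.78 ± 0.43, adjusted p = 0.03582). Without both high-share libraries its adjusted p was 0.113, and without L-NAME mouse 2 0.0835. It was the only gene called of 28 in the acute phase list. Saa1 and Saa2, the main hepatocyte serum amyloids, were chosen after their values were seen. Saa1 was at 95.45, 203.8 and 458.1 CPM with L-NAME and at 9.937, 49.87 and 11880 CPM with ponatinib, and Saa2 at 51.06, 118.2 and 259.1 CPM and at 5.445, 36.93 and 13380 CPM. Ponatinib mouse 2 held the highest values, 6 ponatinib mice lay below every L-NAME mouse in each gene, and the next highest ponatinib mouse had 110.6 CPM of Saa1 and 62.87 CPM of Saa2. With all mice the differences were 2.70 (adjusted p = 0.1738) and 3.69 (adjusted p = 0.05908), and Saa2 was called in 7 of the 16 fits that left out 1 mouse. Without ponatinib mouse 2 they were -2.24 (adjusted p = 0.03195) and -2.03 (adjusted p = 0.1198), so the direction rested on that mouse. Saa1 and Saa2 share 31.12% of the 50-base stretches of Saa1, so the split of reads between them is uncertain. In the same mouse the summed acute phase level was 97330 CPM, against 14730 to 24520 CPM in the other 7 ponatinib mice and 16930 to 29500 CPM with L-NAME.

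The pathway that L-NAME acts on showed 0 called genes of 26 tested by edgeR, DESeq2 or limma voom, with 4 at an unadjusted p below 0.05 in edgeR and a median of -0.03. Nos3, the endothelial nitric oxide synthase, was at 2.427, 8.11 and 10.53 CPM with L-NAME and at 0.1426, 2.753 and 7.156 CPM with ponatinib (-1.08 ± 0.38, adjusted p = 0.2899). No ponatinib mouse reached the L-NAME median. Its exons overlap other genes in 32.28% of their bases. Ddah1 and Ddah2, which break down the natural inhibitor asymmetric dimethylarginine, had -0.09 (adjusted p = 0.9588) and -0.81 (adjusted p = 0.6526). Arg1, arginase, and Ass1, which regenerates arginine from citrulline, had 0.13 (adjusted p = 0.8935) and 0.15 (adjusted p = 0.9432). Nos1 and Nos2 were too low to be tested.

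Across the 25 pathway lists, cholesterol synthesis stood highest and adhesion and inflammation lowest. In 19 lists with 618 tested genes 0 were called by edgeR, with 72 at an unadjusted p below 0.05, and list by list 5 were called by DESeq2 and 2 by limma voom. The respiratory chain is an example of a large list that did not separate the groups. Of 75 oxidative phosphorylation genes 53 were higher and 2 lower than control with ponatinib, 46 were higher and 3 lower than control with L-NAME, and 0 were called between ponatinib and L-NAME by edgeR, DESeq2 or limma voom, with 0 at an unadjusted p below 0.05. The cytosolic ribosomal proteins were alike in this, with 32 and 33 of 77 above control and 0 called between the treatments, 1 at an unadjusted p below 0.05. Control libraries had 7.97% of reads outside genes, against 11.04% with ponatinib and 10.99% with L-NAME. In the counts against control, treatment and this library property cannot be told apart. In the list of kinases that ponatinib inhibits, 0 of 30 were called by edgeR and 1 by DESeq2. In collagens and matrix the median was -0.46, with 0 of 38 called by edgeR, 1 by limma voom and 14 at an unadjusted p below 0.05. Coagulation and fibrinolysis had a median of 0.09 and 0 of 43 called by any of these tools, with 7 at an unadjusted p below 0.05. Against control, with the limit just given, 11 were higher and 5 lower with ponatinib by edgeR. With L-NAME 5 were higher and 4 lower. In this list 3 of the 46 genes had no result. Klkb1 was among them because its symbol was not matched to the counts, which says nothing of its level. The fibrinogen chains Fgb and Fga had 0.26 and 0.30, and 0.00 and 0.02 without ponatinib mouse 2.

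**Figure D5:**
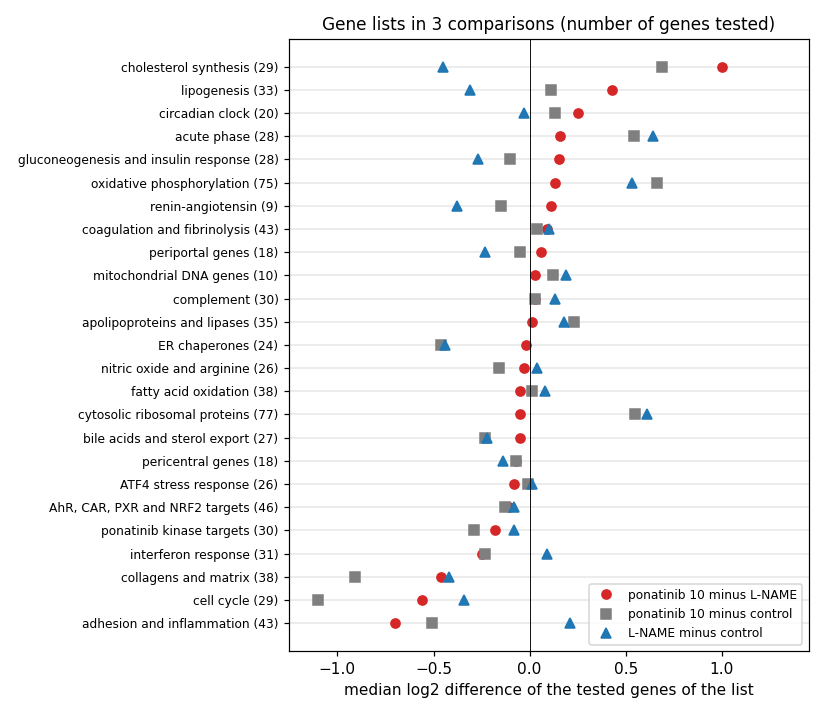
Median log2 difference of the tested genes of 25 lists (y axis, number of genes in brackets) in 3 comparisons (x axis): ponatinib 10 mg/kg against L-NAME (circles), ponatinib 10 mg/kg against control (squares) and L-NAME against control (triangles). Cholesterol synthesis is at 1.00, 0.69 and -0.45 and adhesion and inflammation at -0.70, -0.51 and 0.21 in these comparisons, which share mice.

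A stricter question was which genes set ponatinib 10 mg/kg apart from all 4 of L-NAME, control, imatinib and nilotinib 30 mg/kg in the same direction. Taking for each gene the largest of the 4 p-values, 0 genes passed an adjusted p of 0.05 in edgeR, 0 in DESeq2 and 0 in limma voom, with 138, 155 and 217 at an unadjusted p below 0.05. Of the genes called against L-NAME, the largest, Sqle, Mvd and Gpnmb, differed from imatinib by 0.30, 0.51 and 0.35 (adjusted p = 0.8755, 0.6574 and 0.9495). Higher with ponatinib than with imatinib were Lpin1 and Pklr, by 0.87 and 0.75 (adjusted p = 0.01646 and 0.03959). Derl3, Cldn5, Dab2 and Ets2 were lower with ponatinib than with imatinib, by -2.39, -1.72, -0.98 and -0.77 (adjusted p = 0.0003559, 0.01103, 0.01218 and 0.002829).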

How the data were processed

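Liver poly(A) mRNA of 56 mice was sequenced. The deposited values are whole-number read counts per gene and mouse, which the authors made with TopHat 2.0.14, Bowtie 2.1.0 and HTSeq 0.6.1p1 on GRCm38, with no normalization. The setting for strand is not given in the sources used here. Rows that name no gene were left out of library sizes and tests. Of the counts on genes, outside genes, ambiguous or not unique, 35.86% with ponatinib and 35.51% with L-NAME were for alignments that were not unique. These are shares of counted alignments and need not equal shares of reads.

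Counts were tested in R 4.3.3 with edgeR 4.0.16 (TMM, filterByExpr, quasi-likelihood, all 56 mice, contrast of ponatinib 10 mg/kg with L-NAME), Benjamini-Hochberg adjustment and a threshold of 0.05. Levels are CPM on TMM-scaled libraries. DESeq2 1.42.0 and limma 3.58.1 (voom with sample quality weights), other filters and scalings, a thinned L-NAME library, a covariate for the share of reads outside genes, and fits without each mouse were alternatives. In simulated counts 1 of 81 calls was false. Changes of 0.5, 0.75, 1 and 2 in log2 were recovered in 10.2%, 34%, 49% and 74.5% of genes. For the test against all 4 comparators these shares were 6.1%, 19.1%, 34.7% and 70.2%. A gene that was not called may therefore still differ.

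Genes named were the 12 highest and 12 lowest called genes with a mean of at least 5 CPM, up to 4 called members of each list (or the 2 of highest mean), and Nos1, Nos2, Nos3, Ddah1, Ddah2, Arg1 and Ass1. Other members are given to account for whole lists. Ciita, H2-DMa, H2-DMb1, Saa1, Saa2, Ets1, Ets2, Insig1, Pklr, Gpam, Stab2, Dab2 and Gm37784 were chosen after their values were seen. The comparison and the lists were chosen with earlier results of these data known. Some items are not reported here.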

Additional observations from a re-analysis of the deposited data

Results flagged for a closer look

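A mouse was singled out where the gap to its nearest neighbour took up most of the range of its group of 8 (for genes, on the scale log2(CPM + 0.5)). Of 164 groups of values examined, 18 held such a mouse, and chance flags about 1 in 20 groups. Some of these genes were chosen after their values were seen, and genes such as Saa1 and Saa2 are not independent. The count therefore cannot be judged against that rate.

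Ponatinib mouse 2 accounted for 7 of them. It had 11880 CPM of Saa1 (next 110.6), 13380 CPM of Saa2 (next 62.87), 12160 CPM of Fgb and 10920 CPM of Fga, and low levels of Alb (44040 CPM), Pklr (186.4 CPM) and the matrix proteoglycan Dcn (73.81 CPM). Ponatinib mouse 4 was low in Apoe (21330 CPM) and Stab2 (27.09 CPM), and ponatinib mouse 3 was high in mt-Cytb (20870 CPM). L-NAME mouse 2 had 97473341 reads on genes, 16.75% of reads outside genes and 981.2 CPM of Cps1, a urea cycle enzyme. Among the other L-NAME mice, mouse 5 was low in Nos3 (2.427 CPM), mouse 6 in Sqle (5.398 CPM) and mouse 8 in Alox5ap (2.812 CPM), while mouse 7 was high in Gstm1 (2676 CPM) and mouse 8 in Rpl8 (485.6 CPM).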

How the results depend on the processing

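The 60 calls became 124 by DESeq2 (71 higher, 53 lower), 107 by limma voom (67 and 40), 389 at an unadjusted p of 0.01 (188 and 201), 22 at an adjusted p of 0.01 (21 and 1), 37 to 114 when any mouse was left out, and 22 without both high-share libraries (20 and 2, chosen after seeing the data). They were 61 with DESeq2 size factors, 57 with no filter, 59 with at least 1 CPM, 68 with the covariate, 40 in a fit of the 16 mice alone and 63 with L-NAME mouse 2 thinned. The test against all 4 comparators gave 30 genes (15 higher, 15 lower) at an unadjusted p of 0.01. Differences that changed sign were Saa1 (-2.11) and Saa2 (-1.92) by DESeq2, Saa1 (-1.32), Saa2 (-1.07), Cps1 (-0.18), C3 (-0.17), Rpl8 (0.030), Pck1 (-0.046), Dbp (-0.14) and Rgn (0.0086) by limma voom, C3 (-0.027) with the covariate, and Cps1 (-0.056), Rpl8 (0.0013), Atf5 (-0.052), Ifi27 (-0.049) and Ass1 (-0.044) without both high-share libraries. DESeq2 had replaced the Saa1 and Saa2 counts of ponatinib mouse 2 as outliers, so its values do not hold that mouse's reads. For the others the cause was not tested. No paired analysis was possible because the labels give the mice no numbers shared between the groups. Low genes such as Nos1 and Nos2 were limited by depth.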
